A study of Mus musculus with 18 samples.

Results

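The 5 genes described here belong to the transforming growth factor beta (TGF-beta) pathway: the receptors Tgfbr1 and Tgfbr2, the signal transducer Smad3, the inhibitor Smad7 and the corepressor Ski. Their peaks were taken from an ATAC-seq count table by the gene symbol that the authors gave each peak, which yielded 68 peaks, each 500 bp long, of the 61220 that passed the filter on low counts (4 further peaks of the table, no members among them, did not pass). Smad3 held 23 of them, Ski 21, Smad7 9, Tgfbr2 9 and Tgfbr1 6. By the deposited classes 47 were intronic, 12 lay at promoters, 6 flanked a gene, 2 were exonic and 1 lay in the 3' UTR of Tgfbr2. In ATAC-seq a transposase inserts adapters into accessible DNA, so read counts in a peak measure how open that stretch is and not how much RNA the gene makes.

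The 18 mouse libraries came from 4 groups on the C57BL/6 background. The murine peripheral T-cell lymphomas (mPTCL) numbered 9: p53KO T cells were transferred into CD3KO recipients, and lymphoma cells were sorted from the liver with no sort marker named in the labels. The 9 normal libraries were wild type, 3 for each cell type: CD3+ Thy1+ T cells of the spleen, CD27- CD11b+ mature NK cells of the spleen, and liver NKT cells that carried CD3 and bound a CD1d tetramer loaded with alpha-galactosylceramide. The NKT titles carry the abbreviation Sp although the labels place these cells in the liver. Genotype and gate change together in each lymphoma comparison, and so does the tissue where the normal cells are splenic, and these cannot be told apart. Where NKT cells are compared with T or NK cells, tissue and cell type change together and cannot be told apart. The labels do not tie the 3 libraries of a normal group to different animals, and p-values here measure only a spread that may be technical. Lymphoma numbers follow accession order and have no other meaning.

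TGF-beta binds the type II receptor Tgfbr2, which then activates the type I receptor kinase Tgfbr1. Tgfbr1 phosphorylates the receptor SMADs Smad2 and Smad3, which enter the nucleus with Smad4 and act with cell-type factors at short DNA elements. Smad7 blocks the activated type I receptor, and Ski binds SMAD complexes on DNA and recruits repressors. In lymphocytes the pathway restrains the proliferation and effector functions of T cells, limits NK cells, is needed for NKT-cell development and induces the tissue-retention integrin CD103, the product of Itgae.

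The promoters of Smad3, Tgfbr1 and Tgfbr2 are printed because each has a peak in it or beside it whose signal was compared below. Each run is the 300-base RefSeq window that spans the gene start on GRCm38.p6, the mm10 coordinate system, read 5′ to 3′ on the gene's strand, in lower case with every match to the SMAD core (GTCT or its complement AGAC) in capitals.
Smad3, chr9:63757945-63758244, minus strand: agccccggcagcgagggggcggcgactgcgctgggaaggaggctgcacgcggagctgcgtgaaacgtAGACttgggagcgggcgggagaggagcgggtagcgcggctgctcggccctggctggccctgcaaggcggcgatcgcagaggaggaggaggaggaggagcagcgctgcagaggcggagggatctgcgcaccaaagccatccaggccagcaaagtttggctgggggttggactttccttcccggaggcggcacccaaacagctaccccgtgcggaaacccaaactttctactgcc
Tgfbr1, chr4:47352972-47353271, plus strand: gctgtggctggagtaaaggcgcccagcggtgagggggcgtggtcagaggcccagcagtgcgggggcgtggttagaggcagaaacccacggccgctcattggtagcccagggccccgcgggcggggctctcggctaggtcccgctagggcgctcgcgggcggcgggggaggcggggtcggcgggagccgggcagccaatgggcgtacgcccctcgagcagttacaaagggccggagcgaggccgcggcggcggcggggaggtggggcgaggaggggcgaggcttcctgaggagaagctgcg
Tgfbr2, chr9:116175314-116175613, minus strand: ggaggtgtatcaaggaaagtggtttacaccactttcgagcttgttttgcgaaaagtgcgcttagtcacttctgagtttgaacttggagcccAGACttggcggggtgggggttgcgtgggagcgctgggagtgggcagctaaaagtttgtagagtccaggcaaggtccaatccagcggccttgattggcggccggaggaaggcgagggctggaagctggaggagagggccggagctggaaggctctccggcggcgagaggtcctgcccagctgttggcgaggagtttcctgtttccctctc

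The Smad3 and Tgfbr1 windows lay wholly inside a promoter peak of their gene. The Tgfbr2 window fell between its pair of promoter peaks, 26 bp from the nearer one. The table lists another Tgfbr1 start, whose window overlapped no peak. The Ski window likewise overlapped no peak, and Smad7 was not matched in the table. GC content was 67.7% in the Smad3 window, 74.7% in the Tgfbr1 window and 59% in the Tgfbr2 window, against a median of 52.7% over 32851 promoter windows of this length. They held 25, 34 and 15 CpG dinucleotides, in that order, against a median of 7. The SMAD core matched 1 time in Smad3, 1 time in Tgfbr2 and not at all in the printed Tgfbr1 window, whereas 88% of all windows had at least 1 match and the median was 2. Of the other motifs searched on both strands, the E-box CAGCTG matched 1 time in the Tgfbr2 window (16.3% of all windows have it). The SMAD palindrome GTCTAGAC, which holds both core forms (0.213% of windows), the AP-1 motif TGANTCA (7.81%), the RUNX motif TGTGGT (16.8%), the ETS motif GGAAGT (23.8%) and the T-box motif GGTGTGA (3.98%) had no match in these 3 windows. A match describes letters only and is not evidence of binding.

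The NK libraries were shallowest, with 417107 to 596601 counts in peaks, and the lymphomas had 670358 to 4844441, T libraries 979441 to 2358023 and NKT libraries 1433904 to 9097014. A single count was worth at most 1.39 CPM (counts scaled to library size) in a lymphoma and at most 2.11 CPM in an NK library, so a low peak in NK cells rests on few reads. Chromosome 9, which carries Smad3 and Tgfbr2, took 3.08% to 4.89% of a lymphoma's counts and 4.33% to 5.47% in normal libraries. Chromosome 18, which carries Smad7, took 1.81% to 2.70% against 2.55% to 2.87%, and chromosome 4, which carries Tgfbr1 and Ski, took 5.30% to 9.69% against 6.30% to 6.88%. Values after scaling each chromosome on its own are therefore given beside results of the 5 genes below. The summed level of 10 T-cell markers was 813 to 891 CPM in NKT cells, 530 to 614 in T cells, 312 to 395 in NK cells and 215 to 404 in lymphomas. Of the 10, 6 were called lower and 2 higher in lymphomas than in NKT cells. The higher ones were Cd8a (14.2 CPM in lymphomas and 2.21 in NKT cells on average) and Cd8b1 (8.23 and 0.889), while Cd4 averaged 228 CPM in NKT cells, 26.7 in T cells, 6.97 in lymphomas and 5.15 in NK cells. Cd3e, a subunit of the T-cell receptor complex, averaged 59.0 CPM in NKT cells, 34.3 in T cells, 28.9 in lymphomas and 4.84 in NK cells. The 5 NK-cell markers with a peak, of 6 listed, summed to 145 to 234 CPM in lymphomas and 180 to 226 in NK cells, against 54.2 to 101 in T and 52.8 to 66.2 in NKT cells. The 3 B-cell markers with a peak, of 6, summed to 37.6 to 38.3 CPM in NKT cells, 57.8 to 68.8 in T cells, 83.8 to 152 in NK cells and 85.1 to 172 in lymphomas, and Cd79a and Ms4a1 had no peak. The 4 myeloid markers with a peak, of 7, summed to 48.8 to 58.9 CPM in NKT cells, 48.8 to 64.3 in T cells, 96.4 to 152 in NK cells and 86.8 to 137 in lymphomas, while Lyz2, Csf1r and Adgre1 had no peak. The 2 hepatocyte markers with a peak, of 6, summed to 3.96 to 13.9 CPM in NKT cells, 11.8 to 20.7 in T cells, 19.4 to 53.8 in NK cells and 29.2 to 78.5 in lymphomas, while Alb, Apoa1, Ttr and Serpina1a had no peak. The part of these markers in the results was not tested, and in bulk samples fewer open cells and less signal per cell cannot be told apart.

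Summed over all peaks of a gene, 4 of the 5 genes were less open in lymphomas than in NKT cells (Tgfbr1 was not called). Tgfbr2 and Smad7 were also called less open than in T cells. In a smaller deposited table, another set of peaks counted in the same libraries, neither gene was called against T or NKT cells. Scaled within its chromosome, Smad7 was not called against T cells either. Against NK cells none of the 5 passed an adjusted p of 0.05 in edgeR's quasi-likelihood test, although Smad7, Tgfbr1 and Tgfbr2 had an unadjusted p below it. DESeq2 called Smad7 and Tgfbr1 lower there. Over 20326 genes, 20.2% were called lower and 25.5% higher in lymphomas against NKT cells, 14.7% and 16.2% against T cells, and 10.3% and 11.2% against NK cells. The members are well-covered genes, 4 of them in the top 10% of genes by mean level and Tgfbr2 in the next 10%. In the top 10%, 37.2% of genes were called lower against NKT cells and the median log2 fold change was -0.31. The sums depend on the number of peaks a gene has, so they compare groups within a gene and not one gene with another. Where libraries of a member are said below not to overlap between groups, the share of all genes or peaks that do so was not counted.

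**Figure D1:**
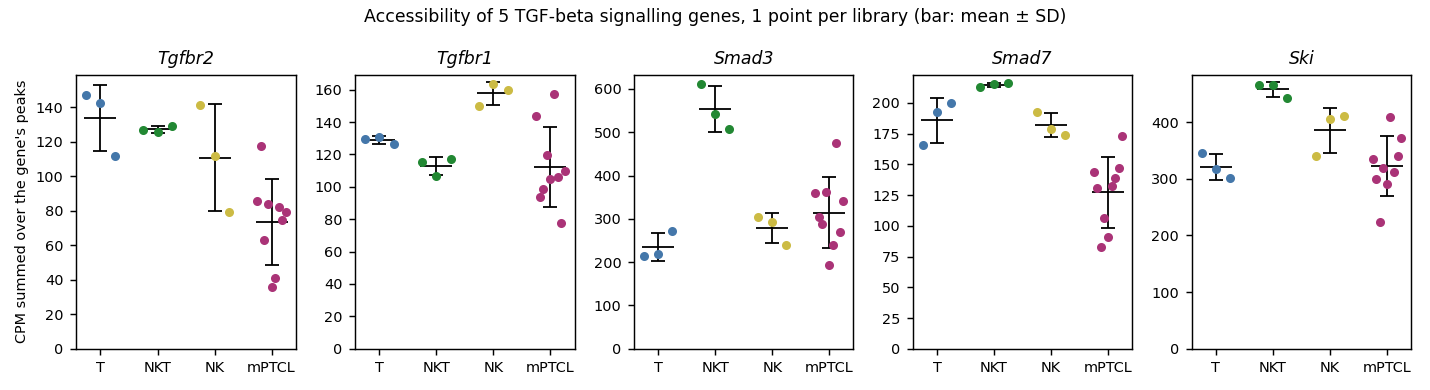
CPM summed over a gene's peaks (vertical axis) in each library, by group, for the 5 genes. Each point is 1 library and the bars are the mean ± SD. The 3 NKT libraries lie above all 9 lymphomas for Tgfbr2, Smad3, Smad7 and Ski, and within the range of the lymphomas for Tgfbr1. The share of all genes that separate in this way was not counted.

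Tgfbr2, the ligand-binding receptor (chromosome 9, 116087695 to 116175363, minus strand), was less open in the lymphomas than in T and NKT cells. The peaks called lower against T cells were 3 intronic peaks and 1 of 2 promoter peaks. Against NKT cells the same peaks and the other promoter peak were called lower. Thus 4 of its 9 peaks were lower against T cells, where 11.4% of all peaks and 17.7% of those on chromosome 9 were. Against NKT cells 5 were lower, where 19.4% of all peaks and 31.4% of those on chromosome 9 were. With each chromosome scaled alone, 4 were lower against T and 3 against NKT cells. Its summed level in the lymphomas ran from 35.7 CPM in mPTCL 5 through a median of 79.1 to 118 in mPTCL 2. T libraries had 147, 142 and 112 CPM, NKT libraries 127, 126 and 129, and NK libraries 141, 112 and 79.1. All 9 lymphomas lay below the lowest NKT library and 8 of 9 below the lowest T library, whereas 4 of 9 lay below the lowest NK library. The log2 fold change was -0.80 (SE 0.24, edgeR adjusted p = 0.00782) against NKT, -0.87 (SE 0.25, adjusted p = 0.00792) against T and -0.59 (SE 0.27, adjusted p = 0.109) against NK cells. Scaled within chromosome 9 the first of these was -0.48 and the second -0.61, both still called. The NKT call was lost with cyclic loess scaling, and in the smaller deposited table both calls were lost. Without the first T library the T comparison was -0.80 with an adjusted p of 0.0516, and without mPTCL 2 the NK comparison was -0.73 with an adjusted p of 0.0382. NK cells and NKT cells were not called different from T cells in Tgfbr2, with log2 differences of -0.28 (SE 0.32) and -0.07 (SE 0.30). These SEs rest on a spread estimated over all 18 libraries, lymphomas included.

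The intronic peak 14.2 kb inside the gene (116160895 to 116161395) had the smallest p of any Tgfbr2 peak. It held 0 to 6.38 CPM in the lymphomas, with a median of 2.29. T libraries had 18.1, 17.3 and 14.0 CPM, NKT libraries 32.0, 32.4 and 27.4, and NK libraries 4.15, 21.1 and 25.4. Every lymphoma was below every T and NKT library, and the first NK library overlapped them. The log2 fold changes were -3.38 (SE 0.48, edgeR adjusted p = 1.09e-06) against NKT, -2.48 (SE 0.51, adjusted p = 0.000427) against T and -2.55 (SE 0.55, adjusted p = 0.00266) against NK cells. They were called as well with each chromosome scaled alone and with cyclic loess scaling. The peak 60.9 kb inside (116114255 to 116114755) had 0 to 7.65 CPM in the lymphomas with a median of 1.15, and 14.9, 17.3 and 14.0 in T libraries. NKT libraries had 6.39, 16.1 and 14.4 CPM there and NK libraries 8.29, 21.1 and 6.35, so mPTCL 2 at 7.65 reached into both ranges. Its log2 fold changes were -2.35 against NKT, -2.63 against T and -2.24 against NK cells, all called, and the last had an adjusted p of 0.0503 when scaled within the chromosome.

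The third intronic peak, 29.9 kb inside (116145229 to 116145729), had 0.218 to 12.5 CPM in the lymphomas with a median of 7.47, against 21.3, 27.7 and 23.4 in T and 17.6, 18.8 and 22.5 in NKT libraries. NK libraries had 20.7, 12.6 and 6.35 CPM. It was lower against NKT (log2 fold change -1.73, SE 0.53) and T cells (-2.02, SE 0.54), and gave -1.13 (SE 0.64, adjusted p = 0.282) against NK cells. The promoter peak 0.70 kb upstream of the gene start (116175815 to 116176315) had 3.73 to 16.6 CPM in the lymphomas with a median of 10.2. T libraries had 23.4, 39.8 and 25.2 CPM, NKT libraries 21.6, 19.8 and 24.5, and NK libraries 35.2, 2.11 and 6.35. The lymphomas were below both the T and NKT libraries without overlap and inside the wide NK range. The log2 fold change was -1.71 (SE 0.46, adjusted p = 0.00544) against T and -1.29 (SE 0.45, adjusted p = 0.0162) against NKT cells, and the latter became -0.86 with an adjusted p of 0.0915 when scaled within chromosome 9. The other promoter peak, just past the start (116174788 to 116175288), had 13.5 to 42.0 CPM in the lymphomas, 29.8, 19.9 and 23.8 in T, 52.0, 44.8 and 44.9 in NKT and 27.0, 25.3 and 9.52 in NK libraries. It was called against NKT cells alone (-0.79, SE 0.31, adjusted p = 0.0372), and scaled within the chromosome it gave -0.36 with an adjusted p of 0.302. The printed promoter lies between these peaks. The remaining 4 Tgfbr2 peaks, including that in the 3' UTR, were not called in any comparison of lymphomas with a normal group. Summed over both promoter peaks with the library scaling of all peaks, Tgfbr2 gave -0.93 against NKT (adjusted p = 0.00564) and -0.58 against T cells (adjusted p = 0.125). With libraries rescaled on promoter peaks alone these were -0.42 and -0.21, neither called.

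Tgfbr1, the type I receptor kinase (chromosome 4, 47353222 to 47414926, plus strand), showed no called change in its summed level. Lymphomas ran from 77.5 CPM in mPTCL 8 through a median of 106 to 157 in mPTCL 6. T libraries had 129, 131 and 126 CPM, NKT libraries 115, 106 and 117, and NK libraries 150, 164 and 160. Of the 9 lymphomas, 8 were below every NK library, and their range covered those of T and NKT cells. The log2 fold changes were 0.00 (SE 0.18) against NKT, -0.19 (SE 0.18) against T and -0.48 (SE 0.19, edgeR adjusted p = 0.0658) against NK cells. Scaled within chromosome 4 the NK value was -0.59 with an adjusted p of 0.0132. It was also called without mPTCL 1 (-0.53, adjusted p = 0.0420) and without mPTCL 6 (-0.56, adjusted p = 0.0258).

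The Tgfbr1 promoter peak that encloses the printed window (47352811 to 47353311) was the strongest peak of the gene. It held 54.4 to 96.1 CPM in the lymphomas with a median of 64.2, and 117, 108 and 95.8 in T libraries. NKT libraries had 95.1, 92.2 and 92.6 CPM and NK libraries 114, 114 and 132. All lymphomas were below the NK libraries, and mPTCL 1, at 96.1, was the 1 that reached the T and NKT values. It was called lower against NK (log2 fold change -0.78, SE 0.22, adjusted p = 0.0158) and T cells (-0.61, SE 0.21, adjusted p = 0.0307). Against NKT cells it gave -0.41 (SE 0.20, adjusted p = 0.0889), and -0.55 with an adjusted p of 0.0169 when scaled within chromosome 4. Cyclic loess scaling, which bends with peak level, gave -0.0048 against T cells for this peak and 0.35 against NKT cells, neither called, so these 2 directions rest on the scaling. The neighbouring promoter peaks were not called: that starting at 47352078 averaged 6.94 CPM in lymphomas and 4.95 to 10.1 in the normal groups, and that starting at 47353456 averaged 12.3 CPM and 6.63 to 15.0. The flanking peak 66.6 kb from the start had a mean of 5.45 ± 2.55 CPM in lymphomas and 1.46 ± 0.446 in NKT cells (SD, n = 9 and 3). It was called higher against NKT cells (1.93, SE 0.74, adjusted p = 0.0437), and the call was not kept when scaled within the chromosome (adjusted p = 0.0523) or with cyclic loess, which gave -0.02. This peak is in the lowest 10% of all peaks by mean level, where 55.9% were higher against NKT cells and the median was 2.47. The intronic peak 29.3 kb inside had 0 to 8.95 CPM in the lymphomas and 0, 16.9 and 15.9 in NK libraries, and was called in no lymphoma comparison.

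Smad3, the receptor-activated transducer (chromosome 9, 63646766 to 63757994, minus strand), was most open in NKT cells among the 4 groups, and the 3 peaks with the smallest p were high in NKT cells and near their T-cell level in the lymphomas. Its summed level ran from 193 CPM in mPTCL 5 through a median of 305 to 475 in mPTCL 7. T libraries had 215, 218 and 271 CPM, NKT libraries 612, 542 and 508, and NK libraries 303, 293 and 239. All lymphomas were below all NKT libraries, while 6 of 9 were above every T library and 5 of 9 above every NK library. The log2 fold change was -0.81 (SE 0.20, edgeR adjusted p = 0.00138) against NKT, 0.42 (SE 0.20, adjusted p = 0.117) against T and 0.18 (SE 0.21, adjusted p = 0.575) against NK cells. Scaled within chromosome 9 the T comparison was 0.70 with an adjusted p of 0.00321, and DESeq2 gave 0.47 with an adjusted p of 0.0497. Among normal cells Smad3 was higher in NKT than in T cells (1.24, SE 0.24, adjusted p = 0.00333) and lower in NK than in NKT cells (-0.99, SE 0.25, adjusted p = 0.00904), while NK and T cells differed by 0.24 (SE 0.25). It was the only one of the 5 genes called between normal groups, where 2.32% of all genes were called higher and 2.23% lower in NKT than in T cells, 8.51% and 6.28% in NK than in NKT cells, and 3.29% and 2.19% in NK than in T cells.

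Of the 23 Smad3 peaks, 10 were lower in lymphomas than in NKT cells and 0 were higher (edgeR, adjusted p below 0.05). Of all peaks 19.4% were lower and 23.2% higher, and of the peaks on chromosome 9, 31.4% and 11.1%. With each chromosome scaled alone, 7 Smad3 peaks were lower and 2 higher. The peak 17.1 kb inside the gene (63740650 to 63741150) had 6.38 to 18.7 CPM in the lymphomas with a median of 15.4. NKT libraries had 63.1, 54.1 and 63.0 CPM, T libraries 8.52, 10.4 and 9.81, and NK libraries 24.9, 25.3 and 19.0. The lymphomas spanned the T range and lay below every NKT and NK library, with a log2 fold change of -2.19 (SE 0.33, adjusted p = 2.96e-06) against NKT, 0.44 (SE 0.39) against T and -0.81 (SE 0.39, adjusted p = 0.195) against NK cells. The peak 25.1 kb inside (63732688 to 63733188) had 1.15 to 20.2 CPM in the lymphomas with a median of 6.38, against 60.0, 44.4 and 43.3 in NKT libraries. T libraries had 6.39, 6.06 and 10.3 CPM there and NK libraries 4.15, 4.22 and 3.17. The difference from NKT was -2.50 (SE 0.46, adjusted p = 4.11e-05), and those from T (0.14, SE 0.54) and NK cells (1.17, SE 0.81) were not called.

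The peak 45.9 kb inside Smad3 (63711840 to 63712340), which the deposited annotation classes as a promoter, had 0 to 11.7 CPM in the lymphomas with a median of 2.94. NKT libraries had 36.0, 51.2 and 39.6 CPM, T libraries 0, 6.06 and 1.40, and NK libraries 8.29, 0 and 6.35. Every NKT library was far above all libraries of the other groups, whose values overlapped one another. Its log2 fold change against NKT was -3.00 (SE 0.56, adjusted p = 4.48e-05). These 3 peaks were also called within chromosome 9 and with cyclic loess. In normal cells all 3 were higher in NKT than in T cells, by 2.63 (SE 0.45), 2.64 (SE 0.61) and 4.09 (SE 0.88) on the log2 scale in the order given, and lower in NK than in NKT cells. The 3 peaks were picked by their p in lymphoma comparisons that use the same NKT libraries. The differences among normal cells are therefore not separate support. The promoter peak around the printed window (63757855 to 63758355) varied less: 24.7 to 51.8 CPM in the lymphomas with a median of 33.9, 61.8, 27.7 and 42.5 in T, 71.1, 65.9 and 72.5 in NKT and 53.9, 35.8 and 28.6 in NK libraries. It was -0.93 (SE 0.25, adjusted p = 0.00337) against NKT, which became -0.49 with an adjusted p of 0.0767 within chromosome 9, and was not called against T or NK cells.

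Against T cells 2 intronic Smad3 peaks were higher in the lymphomas, which is 8.70% of the gene's peaks, near the 8.27% of all peaks. With each chromosome scaled alone 6 Smad3 peaks were higher, and the share of all peaks under that scaling is not given here. The peak 35.5 kb inside (63722286 to 63722786) had 6.11 to 23.4 CPM in the lymphomas with a median of 13.6 and 2.13, 5.19 and 3.74 in T libraries, with no overlap. NKT libraries had 16.0, 17.7 and 17.0 CPM and NK libraries 6.22, 4.22 and 3.17, so the lymphomas spanned the NKT values. Its log2 fold change against T was 1.86 (SE 0.51, adjusted p = 0.0100). The peak 38.0 kb inside (63719760 to 63720260) was 1.11 (SE 0.38, adjusted p = 0.0397) higher than in T cells. Both were also higher in NKT than in T cells, by 2.16 (SE 0.58) and 1.64 (SE 0.44), differences that use the same T libraries. Both lymphoma differences were also called within chromosome 9 and with cyclic loess. Of the Smad3 peaks higher in NKT than in T cells, these 2 were also higher in the lymphomas than in T cells, and the 3 described before them were not.

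**Figure D2:**
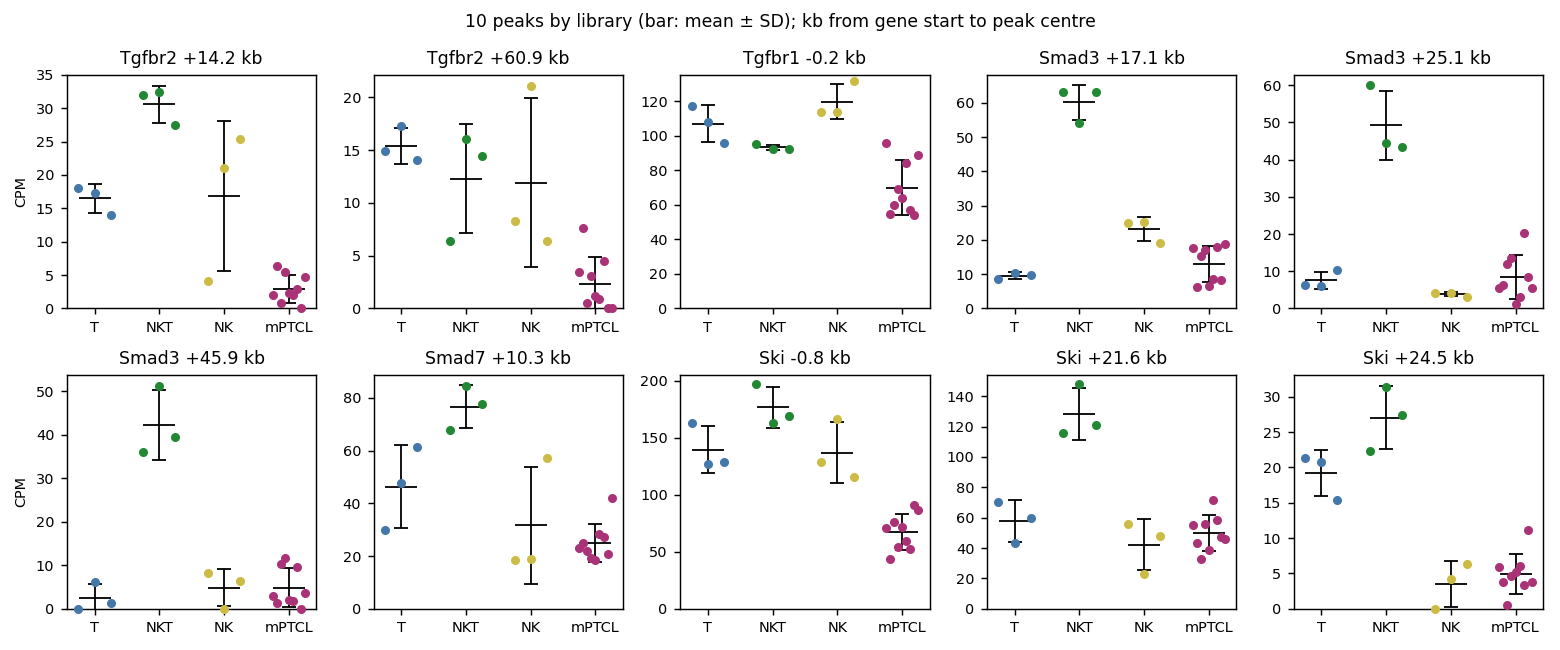
CPM in each library (vertical axis), by group, for 10 peaks named by gene and by distance in kb from the gene start (for Smad7 from its lower RefSeq boundary). Points are libraries and bars the mean ± SD. The 3 Smad3 panels show high NKT points alone, the 2 Tgfbr2 panels and the Ski promoter panel (-0.8 kb) show low lymphoma points against most normal libraries, and the Ski panel at 24.5 kb shows lymphomas and NK cells both low.

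Smad7, the inhibitory SMAD that SMAD signalling itself induces (chromosome 18, 75367365 to 75395935), was less open in the lymphomas than in NKT and T cells. Its summed level ran from 82.7 CPM in mPTCL 3 through a median of 132 to 173 in mPTCL 9. T libraries had 165, 192 and 200 CPM, NKT libraries 213, 215 and 216, and NK libraries 193, 179 and 174. All lymphomas lay below all NKT and all NK libraries, the highest by little in the NK case, and 8 of 9 below every T library. The log2 fold changes were -0.76 (SE 0.18, edgeR adjusted p = 0.00141) against NKT, -0.56 (SE 0.19, adjusted p = 0.0223) against T and -0.52 (SE 0.20, adjusted p = 0.0529) against NK cells. Scaled within chromosome 18 these were -0.39 (adjusted p = 0.0486), -0.29 (adjusted p = 0.200) and -0.18 (adjusted p = 0.506). The T comparison lost its call without the second T library (-0.53, adjusted p = 0.0871) or the third (-0.50, adjusted p = 0.105). In the smaller deposited table neither the NKT nor the T comparison of the summed level was called. The NK comparison gained one when mPTCL 1, 2, 7, 8 or 9 was left out, at -0.59 to -0.55.

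Of the 9 Smad7 peaks, 5 were lower against NKT cells, 3 against T cells and 1 against NK cells. The shares of all peaks that were lower were 19.4%, 11.4% and 3.76% in that order. On chromosome 18 they were 32.2%, 20.6% and 7%. The intronic peak 10.3 kb from the lower gene boundary (75377462 to 75377962) had 18.6 to 42.0 CPM in the lymphomas with a median of 23.0. NKT libraries had 67.9, 84.4 and 77.7 CPM, T libraries 29.8, 47.6 and 61.2, and NK libraries 18.7, 19.0 and 57.1. The lymphomas lay below the NKT values and overlapped the others, with -1.63 (SE 0.28, adjusted p = 2.56e-05) against NKT and -0.91 (SE 0.30, adjusted p = 0.0225) against T cells. The promoter peak at that boundary (75367118 to 75367618), which the annotation also gives to Gm20544, had 19.1 to 37.6 CPM in the lymphomas with a median of 23.2, 57.5, 36.3 and 38.8 in T, 57.6, 60.6 and 62.8 in NKT and 31.1, 35.8 and 23.8 in NK libraries. It gave -1.28 (SE 0.25, adjusted p = 0.000106) against NKT and -0.82 (SE 0.26, adjusted p = 0.0200) against T cells. Within chromosome 18 the NKT calls of both peaks were kept (-1.09 and -0.74) and the T calls were not (-0.52 and -0.41). In the smaller deposited table, another set of peaks counted in the same libraries, the overlapping promoter peak, which starts at 75367214, gave -0.56 against NKT (adjusted p = 0.0749) and -0.13 against T cells (adjusted p = 0.765), so both calls were lost there. The peak at 75377462 gave -1.02 against NKT (adjusted p = 0.00626) and -0.38 against T cells (adjusted p = 0.374) in that table.

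The remaining promoter-class peaks of Smad7 differed in which group stood apart. The peak starting at 75373889 was highest in T cells, with 20.2, 34.6 and 42.1 CPM, against 14.4, 15.4 and 15.2 in NKT, 16.6, 8.43 and 6.35 in NK libraries and 3.15 to 26.5 in the lymphomas (median 9.55). It was lower in lymphomas than in T cells (-1.71, SE 0.42, adjusted p = 0.00243), also within the chromosome (-1.29), and not called against NKT (-0.59) or NK cells (-0.04). The peak starting at 75368982 was highest in NK cells, with 33.2, 35.8 and 14.3 CPM, against 22.4, 15.4 and 19.5 in NKT, 13.8, 15.6 and 11.2 in T libraries and 3.98 to 15.9 in the lymphomas (median 8.31). It was lower against NK (-1.67, SE 0.44, adjusted p = 0.0108) and NKT cells (-1.14, SE 0.40, adjusted p = 0.0179), and the NKT call was lost within the chromosome (-0.60, adjusted p = 0.186). The peak starting at 75366418 averaged 12.1 CPM in lymphomas and 10.8 to 15.9 in the normal groups and was not called. Of the 4 other intronic peaks, 2 were lower against NKT cells, starting at 75370313 (-1.13) and 75392246 (-1.26), and neither was called within the chromosome. The other 2 were called in no lymphoma comparison.

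Ski, the corepressor of SMAD complexes (chromosome 4, 155154075 to 155222535, minus strand), was less open at its promoter in the lymphomas than in all 3 normal groups, while its other called peaks lay on both sides. Its summed level ran from 223 CPM in mPTCL 3 through a median of 320 to 409 in mPTCL 6. T libraries had 346, 317 and 301 CPM, NKT libraries 466, 466 and 443, and NK libraries 340, 405 and 411. All lymphomas were below all NKT libraries, with a log2 fold change of -0.51 (SE 0.16, edgeR adjusted p = 0.0114), and they surrounded the T values (0.00, SE 0.16). Against NK cells the value was -0.26 (SE 0.17, adjusted p = 0.275). The NKT call was lost with cyclic loess scaling (-0.29), with relative log expression (RLE) scaling (-0.38) and without the second NKT library (-0.49, adjusted p = 0.0516). It was -0.62 within chromosome 4.

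The single Ski promoter peak (155223041 to 155223541, 0.76 kb upstream of the gene start) had 43.4 to 90.6 CPM in the lymphomas with a median of 70.6. T libraries had 163, 127 and 129 CPM, NKT libraries 197, 163 and 169, and NK libraries 129, 167 and 116. Every lymphoma was below every normal library. The log2 fold changes were -1.40 (SE 0.21, adjusted p = 2.99e-06) against NKT, -1.06 (SE 0.21, adjusted p = 0.000344) against T and -1.03 (SE 0.22, adjusted p = 0.00189) against NK cells. Within chromosome 4, whose peaks had a median of 0.52 against NKT where all peaks had 0.27, they were -1.52, -1.16 and -1.07. With cyclic loess scaling they were -0.60 (called), -0.40 (adjusted p = 0.115) and -0.77 (called). Its mean level is high, and in the top 10% of peaks by level 62.7% were called lower against NKT, 38.6% against T and 14.9% against NK cells.

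The intronic Ski peak 24.5 kb inside (155197783 to 155198283) separated T and NKT cells from the rest. It had 0.531 to 11.2 CPM in the lymphomas with a median of 4.67 and 0, 4.22 and 6.35 in NK libraries, against 21.3, 20.8 and 15.4 in T and 22.4, 31.4 and 27.4 in NKT libraries. The lymphomas overlapped the NK libraries and no other. The log2 fold change was -2.56 (SE 0.47, adjusted p = 4.03e-05) against NKT, -2.04 (SE 0.49, adjusted p = 0.00220) against T and 0.31 (SE 0.77) against NK cells. The peak 21.6 kb inside (155200660 to 155201160) had 32.9 to 71.4 CPM in the lymphomas with a median of 47.4, 70.3, 43.3 and 59.8 in T and 56.0, 23.2 and 47.6 in NK libraries, and 116, 148 and 121 in NKT libraries. It was high in NKT cells alone, at -1.36 (SE 0.24, adjusted p = 2.67e-05) for lymphomas against NKT, -0.20 against T and 0.24 against NK cells. With cyclic loess the NKT difference was -0.63 with an adjusted p of 0.110.

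The Ski peaks called higher in lymphomas lay at its far end and below the middle of all peaks by mean level. The intronic peak 64.0 kb inside (155158322 to 155158822), named here after its values were seen, had 5.45 to 17.2 CPM in the lymphomas with a median of 9.34, against 2.13, 0 and 1.87 in T and 0, 0.909 and 1.23 in NKT libraries. NK libraries had 2.07, 4.22 and 22.2 CPM. Lymphomas were above every T and NKT library, with log2 fold changes of 3.45 (SE 0.70, adjusted p = 0.000458) against NKT and 2.87 (SE 0.84, adjusted p = 0.00943) against T cells, and 0.05 against NK cells. Both calls were made within chromosome 4 (3.29 and 2.73) and with cyclic loess (1.94 against NKT). The 2 other Ski peaks called higher against NKT, 59.1 kb (2.46) and 69.9 kb (2.58) from the start, were not called with cyclic loess. Of the 21 Ski peaks, 3 (14.3%) were called higher against NKT, beside 23.2% of all peaks and 23.9% of those on chromosome 4. Among all peaks in the range of mean level that holds the 69.9 kb peak, 55.9% were higher, with a median of 2.47. In the range that holds the 59.1 and 64.0 kb peaks, 28.3% were higher, with a median of 0.73.

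**Figure D3:**
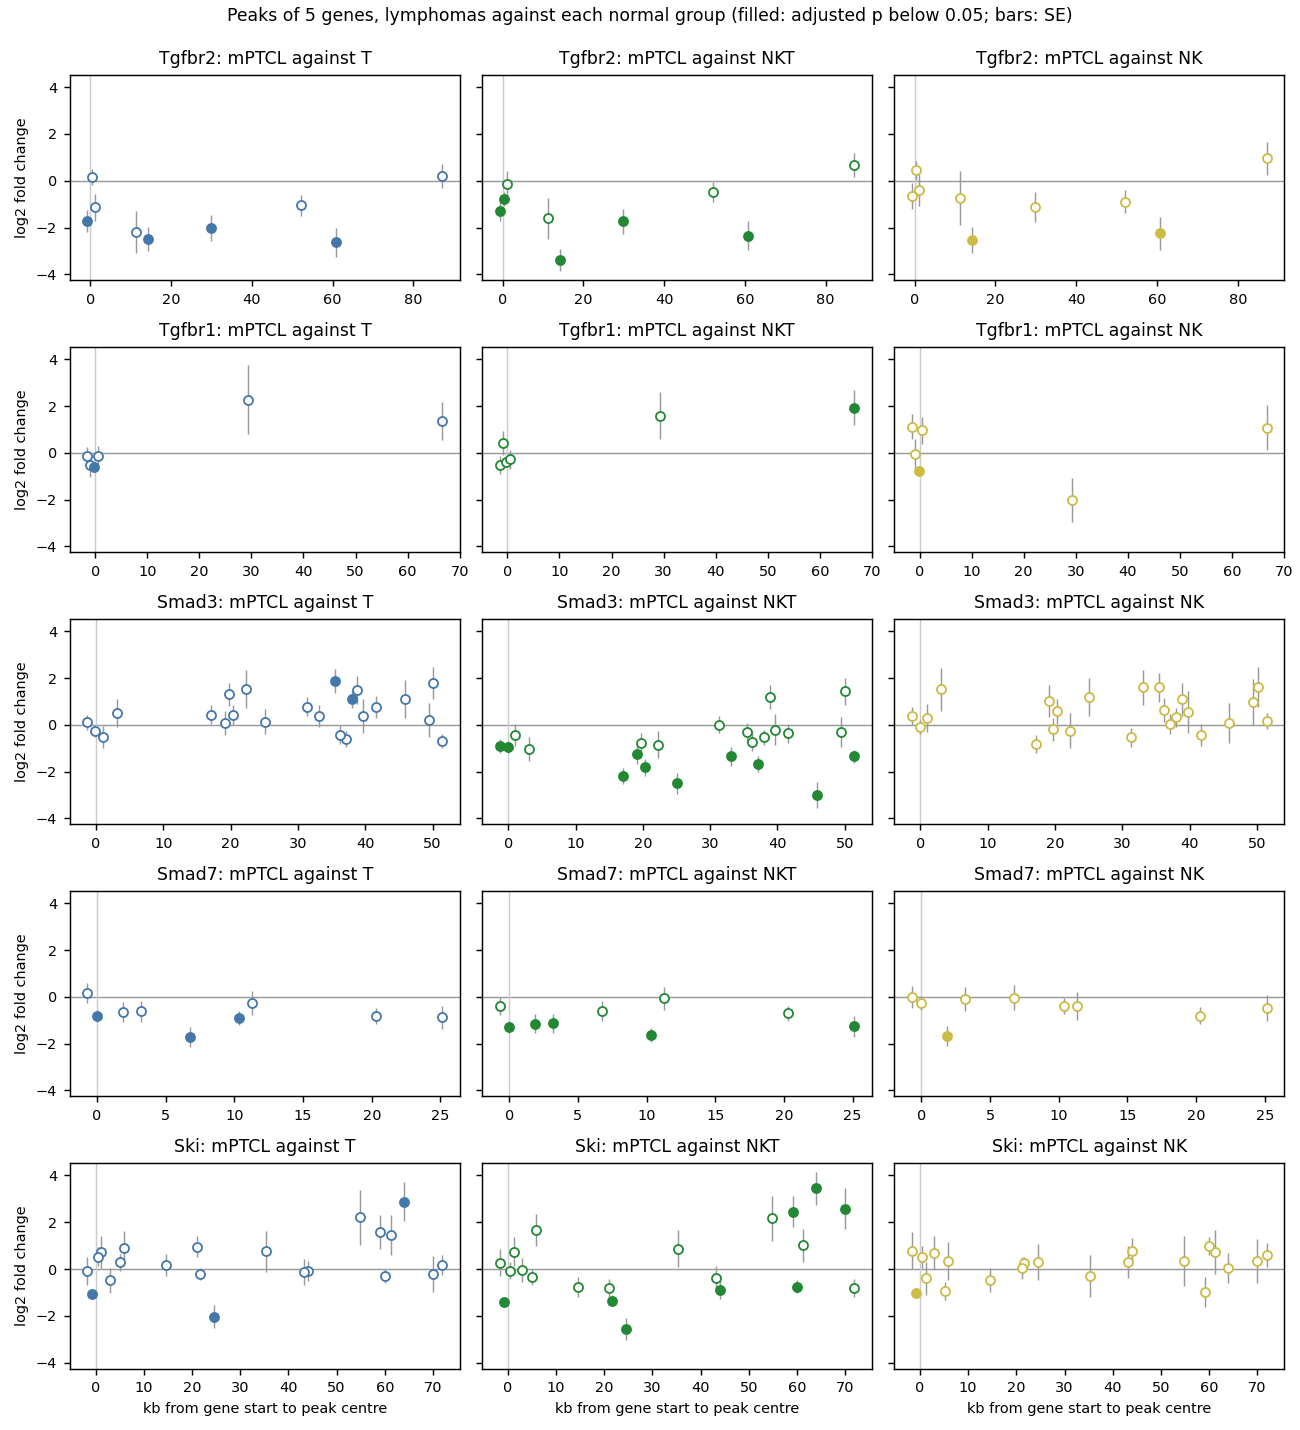
Log2 fold change of lymphomas against T, NKT and NK cells (columns, vertical axis, bars are SE) for each peak of the 5 genes by its distance in kb from the gene start, or from the lower boundary for Smad7 (horizontal axis). Filled points passed an adjusted p of 0.05: 25 lower and 4 higher against NKT, 10 lower and 3 higher against T, and 5 lower and 0 higher against NK cells.

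Across the 68 peaks, all of which were tested, lymphomas differed most often from NKT cells. Against NKT cells 25 peaks were lower and 4 higher, where 19.4% of all 61220 tested peaks were lower and 23.2% higher. The members' median log2 fold change was -0.65, with 52 of 68 below 0, while that of all peaks was 0.27. Peak level goes with this difference over the whole table: in the 10% of peaks next below the top 10% by level, which holds 11 member peaks, 44.9% were lower and the median was -0.63, and in the lowest 10%, which holds 6, 0.147% were lower and the median was 2.47. Among chromosomes, the median over all peaks was -0.38 on 9, -0.38 on 18 and 0.52 on 4. With each chromosome scaled alone 20 member peaks were lower and 5 higher, and 17 of the 25 lower calls were shared. With cyclic loess 12 were lower and 1 higher, of which 11 lower calls were shared. With RLE scaling the split was 14 lower to 8 higher. Without the first NKT library 14 were lower and 2 higher.

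Against T cells 10 member peaks were lower and 3 higher, beside 11.4% and 8.27% of all peaks, and the members' median was 0.10 beside 0.26. Scaled within chromosomes the counts were 8 and 7, with all 8 lower calls shared, and with RLE scaling 7 and 6. DESeq2 gave 8 lower and 10 higher. The shares of all peaks called under these alternatives, here and in the other comparisons, are not given. Leaving out the second T library gave 6 lower, leaving out the third gave 1 higher, and leaving out mPTCL 5, 6 or 8 gave 5 higher. Against NK cells 5 were lower and 0 higher by edgeR and 0 higher by DESeq2, beside 3.76% and 6.03% of all peaks, with 4 higher at an unadjusted p below 0.05. The members' median was 0.07 and that of all peaks 0.30. Without the first NK library 3 were lower and 1 higher, without the second 3 lower and without the third 2 lower. Leaving out mPTCL 9 gave 1 higher. In all, 3 peaks were called lower against all 3 normal groups, beside 1.95% of all peaks: the Ski promoter peak and the Tgfbr2 peaks 14.2 and 60.9 kb inside the gene. The count called higher against all 3 was 0, beside 0.813% of all peaks. In the smaller table these 3 peaks were again called lower against all 3 groups, the Ski promoter peak with an adjusted p of 0.0471 against T cells. Calls of other peaks were lost there: the Tgfbr2 promoter peak upstream of the start gave -0.68 against NKT (adjusted p = 0.259) and -1.20 against T cells (adjusted p = 0.0636), the Smad3 promoter peak -0.34 against NKT (adjusted p = 0.299), and the Tgfbr1 promoter peak -0.10 against T cells (adjusted p = 0.762). The Tgfbr1 promoter peak kept its NK call, at -0.73 with an adjusted p of 0.0119.

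**Figure D4:**
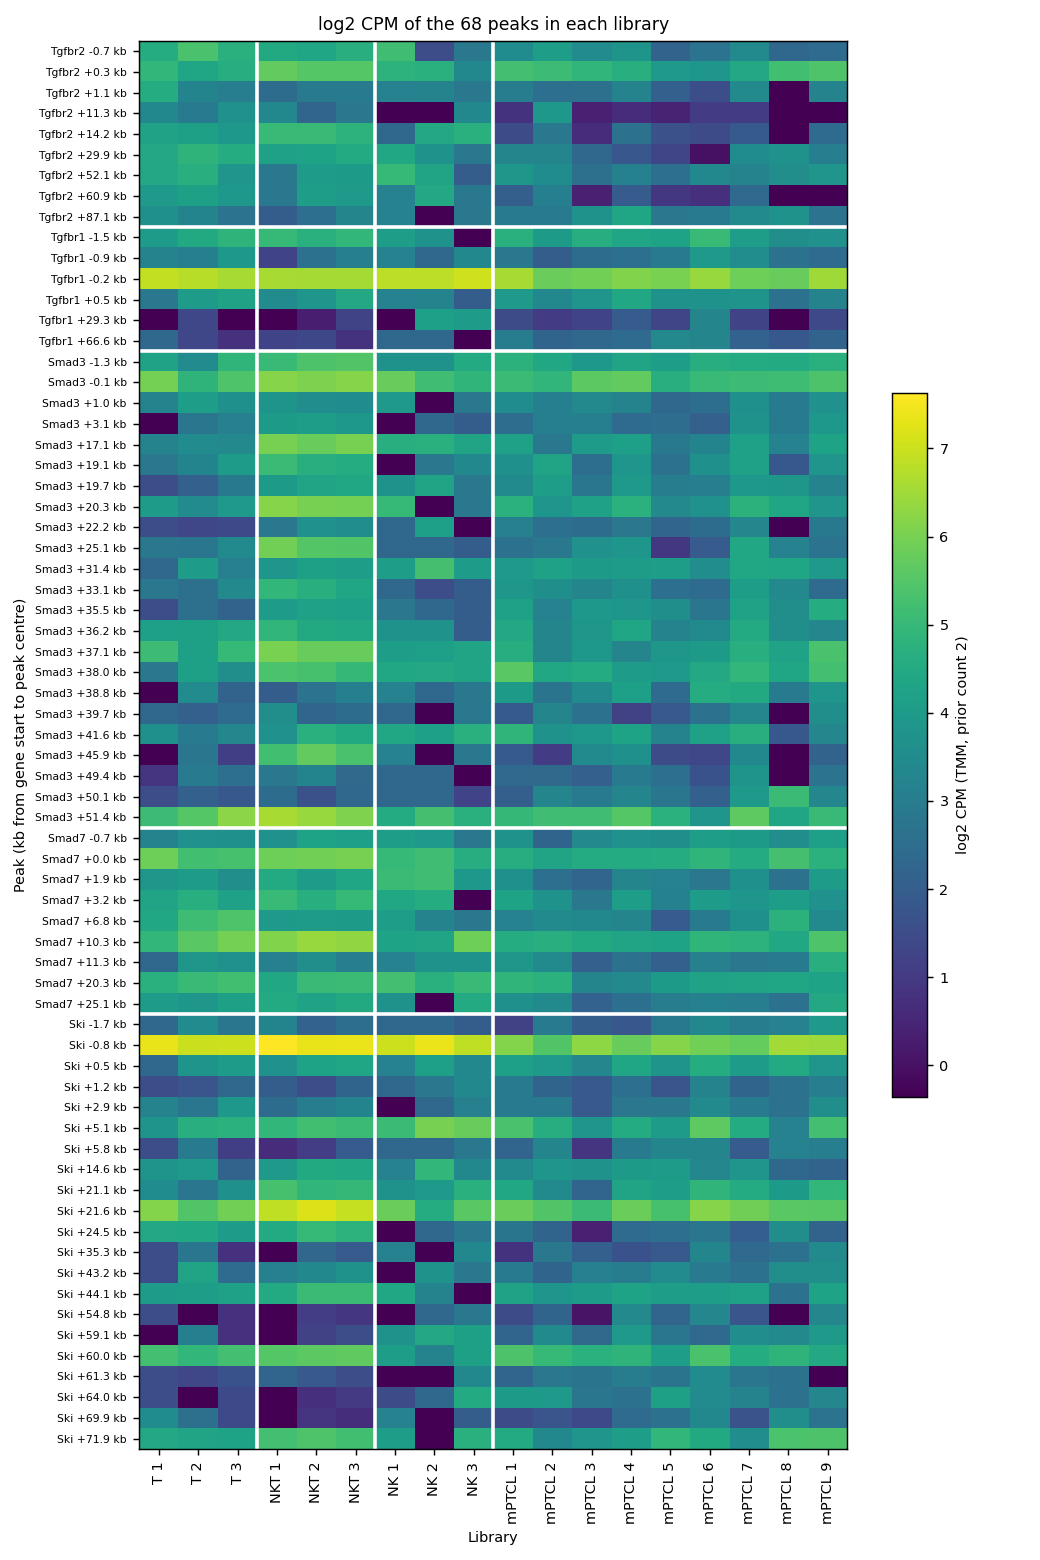
Log2 CPM (colour, TMM scaling, prior count 2) of the 68 peaks (rows, by gene and kb from the gene start, or from the lower boundary for Smad7) in the 18 libraries (columns, by group). White lines part genes and groups, and the Smad3 peaks 17.1, 25.1 and 45.9 kb from the start are brighter in NKT columns than in any other, unlike several peaks between them.

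With TMM scaling, Smad3 held most of the peaks called between NKT cells and the other normal groups. In edgeR, 9 member peaks were higher and 0 lower in NKT than in T cells, beside 3.48% and 1.75% of all peaks. Of the 9, 7 were in Smad3 and 2 in Ski, and 2 peaks were lower at an unadjusted p below 0.05, with 1 lower by DESeq2. Leaving out the first, the second or the third T library gave 4, 3 or 5 higher, and leaving out the first or the second NKT library 5 or 4. In NK against NKT cells 18 were lower and 3 higher, beside 10.3% and 6.81% of all peaks. Of the lower peaks 11 were in Smad3, 4 in Ski, 2 in Smad7 and 1 in Tgfbr1, and the 3 higher peaks were 2 in Ski and 1 in Tgfbr1. With each chromosome scaled alone 12 were lower, 6 of them in Smad3 and 4 in Ski, and 3 higher. The lower count was 7 without the first NKT library, 8 without the second and 10 without the third, and 8, 9 and 7 without the first, the second and the third NK library. The higher count was 1 without the third NK library. Between NK and T cells no member peak was called in either direction by edgeR, beside 2.02% higher and 2.77% lower of all peaks. At an unadjusted p below 0.05 there were 7 higher and 5 lower, and DESeq2 called 6 higher and 0 lower. Without the second T library 1 was higher, and without the first NK library 2 were higher and 1 lower. The 3 lymphoma comparisons share the same 9 lymphomas, and the normal comparisons share libraries with each other, so these counts are not independent.

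**Figure D5:**
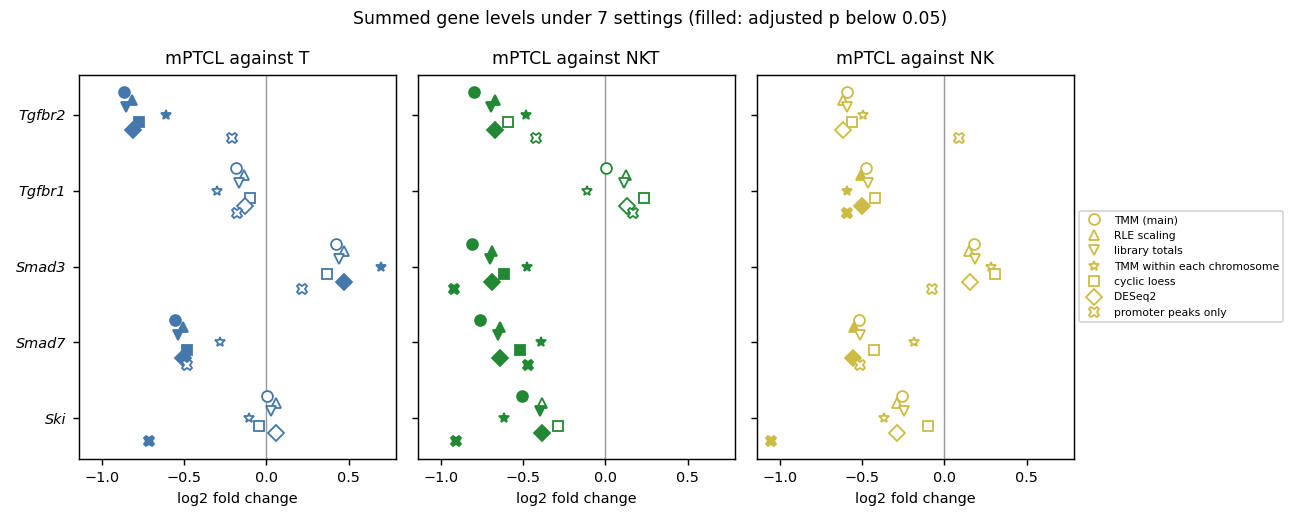
Log2 fold change of summed gene levels (horizontal axis) in lymphomas against T, NKT and NK cells (panels) under 7 settings (symbols), filled where the adjusted p was below 0.05. Smad3 lies below 0 against NKT and above 0 against T cells in every setting shown, Smad7 and Tgfbr2 lie below 0 against all 3 groups apart from Tgfbr2 promoter peaks against NK cells at 0.09, and the Ski points against T cells lie near 0 apart from promoter peaks only at -0.71. The promoter setting also rescales the libraries on promoter peaks.

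Genes of the wider pathway were called in both directions. Values of single list genes are scaled over all chromosomes together, and values scaled within each chromosome are not given for them. A list of 81 other genes of the pathway had 75 with a peak. Of these, 24 were lower and 17 higher in lymphomas against NKT cells, 15 lower and 13 higher against T cells, and 12 lower and 8 higher against NK cells (edgeR, adjusted over all genes). Of all genes 20.2% were lower and 25.5% higher against NKT cells, 14.7% and 16.2% against T cells, and 10.3% and 11.2% against NK cells. The list's median log2 fold change was 0.02, 0.04 and 0.12 in that order, and that of all genes 0.06, 0.12 and 0.13. Among 10 other signal transducers, 5 were lower and 1 higher against NKT cells, 3 lower and 2 higher against T cells, and 3 lower and 2 higher against NK cells. Those lower against NKT cells were Smad1 (-1.14), Smad2 (-0.60), Smad4, the common partner of the receptor SMADs (-0.78), Smad5 (-0.61) and the TAK1 adaptor Tab2 (-0.74), and the higher one was Zfyve9, the anchor that presents SMADs to the receptor (1.27). Among 16 inhibitors and turnover genes, 7 were lower and 3 higher against NKT cells. Against T cells 6 were lower and 0 higher, and against NK cells 5 were lower and 2 higher. Of 16 tested ligand and activation genes, 6 were higher and 4 lower against NKT cells, with Tgfb2 (2.96) and Ltbp1, a latent TGF-beta binding protein (2.72), among the higher ones, and 4 higher and 1 lower against T cells. Against NK cells 0 were higher and 1 was lower. Of 8 tested receptors, 4 were higher and 0 lower against NKT cells, among them the coreceptor Tgfbr3 (1.29), 0 higher and 1 lower against T cells, and 2 higher and 0 lower against NK cells.

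In all, 8 genes of the list were called in all 3 comparisons of lymphomas with a normal group, each in the same direction throughout, 7 lower and 1 higher, where 5.17% of all genes were lower and 3.73% higher in all 3. Of 14 tested target genes in lymphocytes, 2 were higher and 2 lower against NKT cells, 5 and 1 against T cells, and 2 and 1 against NK cells. Itgae, the CD103 integrin chain that TGF-beta induces in lymphocytes, was the 1 that was higher, with 49.9 to 147 CPM in the lymphomas against 37.9 to 51.7 in NK cells, 27.1 to 45.0 in NKT cells and 21.7 to 34.2 in T cells. Its log2 fold changes were 1.21 (SE 0.23) against NKT, 1.76 (SE 0.26) against T and 1.01 (SE 0.28) against NK cells, and its lowest lymphoma lay within the NK range. The 7 lower genes were Smad1, Zeb1, Fkbp1a, Strap, Wwp1, Klf2 and Itgav. The part of chromosome-wide shifts in the values of these genes was not tested. Zeb1, a zinc-finger repressor that binds SMADs, had 29.4 to 59.8 CPM in the lymphomas and 74.1 or more in every normal library, with -1.46 (SE 0.20) against NKT, -0.95 (SE 0.21) against T and -1.03 (SE 0.22) against NK cells. Smad1, a transducer of the BMP branch, gave -1.14, -0.97 and -1.21 in that order. Fkbp1a, which holds the type I receptor inactive, gave -0.88, -1.01 and -1.11, and Strap, a WD-repeat partner of Smad7, gave -0.68, -0.76 and -0.86. Wwp1, a ubiquitin ligase, gave -0.63, -0.87 and -0.67, Klf2, a regulator of lymphocyte recirculation, -0.76, -0.58 and -0.61, and Itgav, the alpha-v chain of latent TGF-beta activating integrins, -0.58, -1.01 and -0.85.

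Over the 18 libraries the 5 genes did not share 1 pattern. Smad7 ranked libraries like Tgfbr2 and like Ski, with Spearman's rho of 0.66 each, and the other pairs had rho between -0.20 and 0.38. Among all genes, the patterns most like Smad7 were those of Cytip (rho 0.92), Eif3m (0.91) and Zeb1 (0.91). For Tgfbr2 they were Gm48843 (0.91), Zmynd11 (0.88) and 4933433G15Rik (0.87), and for Smad3 they included Gm31718 (0.85) and Gm34086 (0.85). For Tgfbr1 they were Ccnf (0.84), Wdr89 (0.82) and Fkbp15 (0.79), and for Ski Arhgap26 (0.87), Arl8b (0.87) and Gm14455 (0.85). These are descriptions over 18 libraries that share depth and group, taken from the highest of 20320 or 20321 genes. Genes on a member's own chromosome were not left out, and the part of chromosome-wide shifts in these patterns was not tested.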

How the data were processed

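The authors deposited whole-number read counts per 500 bp peak for 18 ATAC-seq libraries, not normalized, with a gene symbol and a class for each peak. Per the submitters' processing notes they used MACS2 2.1.2, bedtools, edgeR 3.24.3 and the mm10 build. Which aligner and duplicate filter were used, how peaks were selected and whether read ends were shifted for Tn5 is not given in the sources used here. The authors also deposited log2 CPM values, which equal a recomputation from the counts with TMM scaling and a prior count of 2. Positions follow the deposited files, which do not state whether the first base is 0 or 1. Of the 68 member peaks, 37 overlap a peak of another deposited table, which holds 27727 peaks.

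Here the counts were fitted in edgeR 4.0.16 (R 4.3.3, limma 3.58.1, version 1.17.8 of data.table) by 1 quasi-likelihood model of the 4 groups in all 18 libraries, after TMM scaling and filterByExpr, leaving 14 residual degrees of freedom and 61220 peaks. Gene values are counts summed over a symbol's peaks, with 20326 genes tested; a peak with 2 symbols counts toward both. The Benjamini-Hochberg adjustment ran over all peaks or all genes, two-sided, with a threshold of 0.05. CPM are TMM-scaled with no prior count. The biological coefficient of variation was 0.431 for peaks and 0.297 for genes. The fit was tested on simulated data. Library pairs within a group differed by more than sampling noise, so none was merged.

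Each gene's promoter peaks and its 3 peaks with the smallest p over the lymphoma comparisons are described in full, and others by range or count. Pathway genes are named where called in all 3 lymphoma comparisons, at most 8. Some pathway genes are named beyond that as examples of their group, chosen after their values were seen. The members and lists were chosen with earlier results of these data known. Same-numbered normal libraries were checked for pairing: the correlation of their deviations from group means was -0.037 to 0.046 over 9 pairs, so they are not treated as pairs. Sequences are RefSeq promoter windows on GRCm38.p6, matched by symbol for 4 of the 5 members. Alternatives were RLE scaling, library totals, TMM within each chromosome, cyclic loess, DESeq2 1.42.0, other filters, fits on 2 groups, promoter peaks, the smaller table and leaving out each library. Gene sums in the smaller table and promoter sums with the scaling of all peaks were added after seeing the data. Depths speak to counting error only, since reads that PCR copied are not separate molecules and no source used here names molecular identifiers. A few genes that the lists or naming rules cover are not reported here.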

Additional observations from a re-analysis of the deposited data

Results flagged for a closer look

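In 7 of 73 items (68 peaks and 5 summed gene levels) 1 lymphoma stood apart from the other 8 by Dixon's test at the 95% level on log2 CPM, which chance flags in about 1 of 20 groups. In the Smad7 peak starting at 75366418, mPTCL 2 was low at 2.20, and the next library was at 3.41. In the Ski peaks, mPTCL 9 was low at -0.36 in that starting at 155160990 (next 2.23), mPTCL 8 at 2.67 in that starting at 155178203 (next 3.83), and mPTCL 3 at 0.39 in that starting at 155197783 (next 2.04). In the Smad3 peak starting at 63735503 mPTCL 8 was low at -0.36 (next 2.26), and in the Tgfbr2 peak starting at 116174026 it was also at -0.36 (next 1.57). A value of -0.36 is a library with 0 counts in the peak. The single high library was mPTCL 2 in the Tgfbr2 peak starting at 116163806, at 3.89 where the next was at 1.06; it held 14.0 CPM there. mPTCL 8 has the fewest counts of the lymphomas, 670358, and its part in these values was not tested. None of the 5 summed gene levels had a lymphoma that stood apart in this way.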

How the results depend on the processing

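Scaling, tool and peak table moved the counts of member peaks. The shares of all peaks called under each setting are not given beside them. Against NKT cells the 4 higher peaks were 8 with RLE scaling, 8 with library totals, 1 at a mean count of at least 20, 1 with cyclic loess, 12 with DESeq2, 0 in the smaller table and 2 to 7 with 1 library left out. The 25 lower peaks were 14, 15, 13, 12, 13 and 9 under the same settings and 14 to 25 with 1 library left out. Against T cells the 3 higher peaks were 6 with RLE, 5 with library totals, 7 within chromosomes, 10 with DESeq2, 1 in the smaller table and 1 to 5 with 1 library left out, and the 10 lower peaks were 5 in the smaller table and 6 to 11. Against NK cells the 0 higher peaks were 0 to 1 with 1 library left out, and the 5 lower peaks were 9 with cyclic loess, 3 with 2 groups only and 2 to 6.

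Between NKT and T cells the 9 higher peaks were 5 at a mean count of at least 20, 4 with cyclic loess, 18 with 2 groups only, 3 in the smaller table and 3 to 6 with 1 library left out, and the 0 lower peaks were 1 with DESeq2, 1 with 2 groups only and 1 with normal libraries only. Between NK and T cells the 0 higher peaks were 2 with RLE, 1 within chromosomes, 6 with cyclic loess, 6 with DESeq2, 2 with 2 groups only, 1 in the smaller table, 4 with normal libraries only and 0 to 2 with 1 library left out. The 0 lower peaks were 1 within chromosomes, 1 with cyclic loess, 1 with normal libraries only and 0 to 1. Between NK and NKT cells the 3 higher peaks were 1 at a mean count of at least 20, 5 with DESeq2, 1 in the smaller table and 1 to 3, and the 18 lower peaks were 7 with RLE, 7 with library totals, 4 at a mean count of at least 20, 9 with cyclic loess, 7 with DESeq2, 7 with 2 groups only, 1 in the smaller table, 11 with normal libraries only and 7 to 10. A filter at a mean count of 20 and the smaller table test fewer peaks; the cause of the other changes was not tested. With the replicate block in the normal libraries the higher peaks between NK and T cells were 2 and the lower peaks between NK and NKT cells 9. Same-numbered libraries did not deviate together by the rule used (0 of 9 correlations above 0.1), although 5 of 9 libraries correlated best with one of their own number, a hint from the data and not the design.

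Summed levels changed their side of the threshold as follows (log2 fold change). Against NKT cells Smad7 was -0.47 in the smaller table, Tgfbr2 -0.59 with cyclic loess, -0.60 in the smaller table and -0.42 over promoter peaks, and Ski -0.38 with RLE, -0.29 with cyclic loess and -0.55 to -0.49 with 1 library left out. Against T cells Smad3 was 0.70 within chromosomes and 0.47 with DESeq2. Smad7 was -0.29 within chromosomes, -0.30 in the smaller table, -0.49 over promoter peaks and -0.63 to -0.50 with 1 library left out, and Tgfbr2 was -0.68 in the smaller table, -0.21 over promoter peaks and -1.02 to -0.79. Ski turned from 0.00 to -0.71 over promoter peaks, a single peak. The promoter values above rescale libraries on promoter peaks; with the scaling of all peaks, added after seeing the data, Tgfbr1 was -0.54, Tgfbr2 -0.58 and Ski -1.06 against T cells. Against NK cells Smad7 was -0.55 with RLE, a mean count of at least 20 and DESeq2, and -0.59 to -0.48 with 1 library left out. Tgfbr1 was -0.51 with RLE and a mean count of at least 20, -0.59 within chromosomes, -0.50 with DESeq2 and in the smaller table, -0.59 over promoter peaks and -0.56 to -0.43, Tgfbr2 was -0.80 to -0.38 with 1 library left out, and Ski was -1.06 over promoter peaks. With the scaling of all peaks the promoter values were -0.58 for Tgfbr1 and -1.04 for Ski. The pathway counts in the lymphoma comparisons stayed within 1.5 times with RLE scaling, library totals and TMM within each chromosome. They were not counted under the other alternatives. Depth limits the NK libraries most, where 1 count is up to 2.11 CPM.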
